A study of Mus musculus with 12 samples.

Results

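Chitinase-like proteins and the markers of alternative macrophage activation were followed through DSS colitis in the colon of ATF6aKO and ATF6bKO mice. The 8 genes were Chil1, Chil3, Chil4, Retnla, Arg1, Ccl24, Mrc1 and Cd163. They were found by the transcript accession that each array probe carries, and 10 of the 41174 probes matched, 2 of them for Retnla and 2 for Ccl24. All 8 genes passed the filter on dim probes and stand among the 23851 genes or transcripts tested. The 8 genes had been selected on their measured levels in the DSS and UT arrays, so their DSS differences are given as a description, without a test.

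Alternative activation is the state that macrophages enter under the type 2 cytokines interleukin 4 and interleukin 13, which act through the interleukin 4 receptor and the transcription factor STAT6. In mice, Chil3 (Ym1), Retnla (RELM alpha, also FIZZ1) and Arg1 are its classic secreted or enzymatic markers, and Mrc1 and Cd163 are scavenger receptors at the surface of such cells. Chitinase-like proteins keep the fold of chitinases but do not cleave chitin. In the gut these genes are studied in defence against worms and in the repair of damaged mucosa, and some of them, among them Chil1, are also made by epithelium and neutrophils.

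RNA of whole colon from male C57BL/6J mice was hybridised to 12 single-colour Agilent arrays, with 2 arrays in each of 6 groups. The groups were ATF6aKO (knockout of Atf6) with DSS and untreated (UT), ATF6bKO (knockout of Atf6b) with DSS and UT, and wild-type (WT) mice in a group titled DSS and a group titled UT. DSS, dextran sulfate sodium, is a polymer that injures the colonic epithelium, and per the labels the mice drank water with 3% of it over 3 days. The study set out to find responses to DSS that need one or the other ATF6 protein, both of them sensors of unfolded proteins in the endoplasmic reticulum. Age, the construction of the alleles, and whether a group's arrays stem from different animals are not given in the labels, so p-values here cover the spread between samples that may be technical repeats.

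For WT, the labels contradict each other: titles and source names give one treatment, and descriptions and treatment fields the other. The WT groups are therefore called WT titled DSS and WT titled UT, and no sign of their difference is read as an effect of DSS. The authors' deposited value table adds to this, since its 4 WT columns hold the arrays whose scanner files belong to the other WT group. The knockout labels hold no such contradiction, but the 4 ATF6aKO columns of that table hold the array of the other replicate of the same group, so 8 of its 12 columns match another array. Replicate numbers below are those of the scanner files. Each genotype was hybridised on a slide of its own, so genotype and slide cannot be told apart, while each DSS difference lies within 1 slide. Probes well above background numbered 26951 to 31412 per array. Colon epithelium markers were well above background on all 12 arrays for 9 of 9 genes tested, while of 7 genes on the array from a list for small intestine, stomach and pancreas, Ctrb1 was so on 12 arrays, Fabp6 on 10, Tff2 on 4, Apoa4 on 3, and Gkn1, Pnlip and Cela2a on 0. Fabp6 was 3.58 log2 units higher with DSS in ATF6bKO (limma adjusted p = 0.00127), against 0.36 in ATF6aKO (adjusted p = 0.544). Whether the stretch of gut taken differed between arrays was not tested. Atf6b checks the label of its knockout: relative to WT it was lower in ATF6bKO (-6.09 log2 units, SE 0.69, limma adjusted p = 0.00182) and was well above background on 1 of 4 ATF6bKO arrays. Atf6 was not analysed here, so the ATF6aKO label was not checked by its gene.

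Chil3, Chil4 and Retnla had upstream windows with a match to a searched motif, and these are shown. The 3 windows hold the 250 bases before the RefSeq transcript start (assembly GRCm38.p6), 5′ to 3′ on the strand of the gene, with every match to a searched motif in capitals. They lie at chr3:106167565-106167814 on the minus strand for Chil3, chr3:106219480-106219729 on the minus strand for Chil4 and chr16:48842359-48842608 on the plus strand for Retnla.
Chil3: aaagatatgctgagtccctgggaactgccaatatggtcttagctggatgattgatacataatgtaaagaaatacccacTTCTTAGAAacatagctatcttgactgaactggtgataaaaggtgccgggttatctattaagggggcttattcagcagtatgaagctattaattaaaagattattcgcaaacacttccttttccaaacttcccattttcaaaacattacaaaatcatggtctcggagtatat
Chil4: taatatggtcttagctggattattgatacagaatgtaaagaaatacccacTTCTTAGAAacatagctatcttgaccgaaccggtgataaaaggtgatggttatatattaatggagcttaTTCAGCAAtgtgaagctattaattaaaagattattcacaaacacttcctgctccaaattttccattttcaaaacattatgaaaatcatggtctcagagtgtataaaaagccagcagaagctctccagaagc
Retnla: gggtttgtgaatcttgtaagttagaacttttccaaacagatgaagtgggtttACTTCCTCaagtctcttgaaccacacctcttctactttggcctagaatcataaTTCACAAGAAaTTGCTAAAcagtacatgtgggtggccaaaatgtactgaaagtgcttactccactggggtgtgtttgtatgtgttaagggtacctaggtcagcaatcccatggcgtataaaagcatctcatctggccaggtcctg
Windows were available for 6 of the 8 genes. Those of Chil3 and Chil4 were identical at 201 of 279 alignment columns (72.0%), against 42.4% to 50% for the other 14 pairs. These columns include gaps, so a shift between the starts of 2 genes lowers the percentage. It is therefore not the share of matching letters among paired bases. Chil3 and Chil4 share the match TTCTTAGAA to the STAT-type motif TTCNNNGAA, at bases 172 to 164 before the start of Chil3 and 200 to 192 before that of Chil4. That motif occurred in 7.02% of all 32851 windows of this length, both strands searched. Retnla held the match TTCACAAGAA to the STAT6-type motif TTCNNNNGAA at bases 145 to 136 (5.85% of windows) and the match ACTTCCTC to the PU.1 core GAGGAAGT at bases 198 to 191 (2.44%). The CEBP-type motif TTGCNNAA (9.56%) was matched in Retnla by TTGCTAAA at bases 134 to 127 and in Chil4 by TTCAGCAA at bases 131 to 124. The windows of Chil1, Mrc1 and Cd163 held no match to any motif searched. None of the 6 windows held the ATF6 site TGACGTGG, found in 0.563% of windows, or the endoplasmic reticulum stress element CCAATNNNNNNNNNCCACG, found in 0.113%. A match is a description of the letters and was not tested as a site.

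Levels below are log2 units of processed signal relative to the 75th percentile of the same array, so a level of 0 equals that percentile and a negative level lies under it. Levels of different probes are not set against each other, and in whole colon more cells of a type and more RNA per cell cannot be told apart. In both knockouts, 7 of the 8 genes had both DSS arrays above both UT arrays, and the exception, Retnla, did so in ATF6aKO alone. Of all genes, 36.3% had such separation in ATF6aKO and 26.3% in ATF6bKO. The differences were largest for Chil3 in either knockout.

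Chil3 encodes Ym1, a secreted chitinase-like lectin of mouse macrophages. Its level was 0.75 and -0.23 on the ATF6aKO DSS arrays, against -3.00 and -4.94 on the ATF6aKO UT arrays. In ATF6bKO it was -0.51 and -0.04 with DSS, against -4.32 and -3.60 in UT. In WT it was -3.25 and -3.73 in the group titled DSS, against -4.36 and -5.19 in the group titled UT. All 4 knockout DSS arrays lay above the other 8 arrays, with no overlap. The difference was 4.23 (SE 0.62, 18.8-fold) in ATF6aKO, 3.68 (12.8-fold) in ATF6bKO and 1.28 (2.44-fold) between the WT titled groups. Chil3 was the only one of the 8 genes whose WT titled DSS arrays both lay above the WT titled UT arrays. The UT arrays of both knockouts and the 4 WT arrays overlapped.

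Chil4 encodes Ym2, a close relative of Ym1. How far the probe of either gene takes up the other's transcript was not tested. It measured -2.90 and -3.84 on the ATF6aKO DSS arrays, against -6.10 and -7.89 in ATF6aKO UT, where it was not well above background on either array. In ATF6bKO, DSS arrays had -4.88 and -4.25, against -7.34 and -6.34 in UT, again not well above background on either UT array. Between the WT groups there was no separation, with -5.44 and -5.71 for titled DSS and -5.40 and -5.67 for titled UT, 1 array of each well above background. Since the UT arrays give only a bound, the DSS level was at least 6.33-fold higher in ATF6aKO and at least 2.07-fold higher in ATF6bKO. These bounds set the DSS mean against the higher of the UT signal and the lowest signal marked well above background on the same array. The measured differences were 3.62 and 2.28 (SE 0.58 each).

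Chil1 encodes a chitinase-like glycoprotein known as BRP-39 in mice and YKL-40 in humans. It had -1.79 and -2.18 on the ATF6aKO DSS arrays, against -4.13 and -3.95 on the UT arrays. In ATF6bKO the DSS arrays had -1.87 and -1.99, against -4.54 and -3.93 in UT. The WT arrays had -3.68 and -3.94 in the group titled DSS, against -2.54 and -3.50 in the group titled UT. The order of the WT groups was thus the reverse of that in the knockouts by the titles, and no WT array reached the knockout DSS arrays. DSS differences were 2.05 (SE 0.33, 4.15-fold) in ATF6aKO and 2.31 (4.96-fold) in ATF6bKO, against -0.79 between the WT titled groups.

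Retnla encodes a small secreted protein of alternatively activated macrophages and, in the inflamed gut and airway, of other cells. Its level was 4.56 and 4.60 in ATF6aKO DSS, against 4.17 and 2.97 in ATF6aKO UT. In ATF6bKO the order was the other way, 4.27 and 4.38 in DSS against 4.60 and 4.86 in UT. WT arrays had 1.21 and 0.19 in the group titled DSS, against 2.92 and 1.84 in the group titled UT. All 8 knockout arrays lay above all 4 WT arrays, and among the knockout arrays the single low value was ATF6aKO UT replicate 2. The DSS difference was 1.01 (SE 0.48) in ATF6aKO, -0.41 in ATF6bKO and -1.68 between the WT titled groups. Its other probe gave 1.05, -0.54 and -1.75 for the same comparisons.

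Arg1 encodes arginase 1, which splits arginine into ornithine and urea. It measured -1.48 and -2.30 in ATF6aKO DSS, against -2.95 and -5.28 in ATF6aKO UT. The ATF6bKO DSS arrays had -1.56 and 0.44, against -4.12 and -3.88 in UT. WT arrays had -5.35 and -5.10 in the group titled DSS, against -3.91 and -2.99 in the group titled UT. Groups did not overlap in any genotype, but replicates lay far apart in ATF6aKO UT and in ATF6bKO DSS. The differences were 2.22 (SE 0.80, 4.67-fold) in ATF6aKO, 3.44 (10.9-fold) in ATF6bKO and -1.78 between the WT titled groups.

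Ccl24 encodes eotaxin-2, a chemokine that draws eosinophils through the receptor CCR3. Its level was 2.16 and 1.66 in ATF6aKO DSS, against 0.48 and -1.54 in ATF6aKO UT. In ATF6bKO it was 3.14 and 3.34 in DSS, against -0.37 and 0.17 in UT. WT arrays had -2.10 and -2.92 in the group titled DSS, against -0.49 and -2.11 in the group titled UT, and these 2 groups overlapped. Both ATF6bKO DSS arrays lay above both ATF6aKO DSS arrays, and every knockout DSS array above every other array. The differences were 2.44 (SE 0.69, 5.44-fold) in ATF6aKO, 3.34 (10.1-fold) in ATF6bKO and -1.21 between the WT titled groups, and the other Ccl24 probe gave 2.45, 3.42 and -1.31.

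Both scavenger receptors differed by less. Mrc1, the mannose receptor CD206, measured 1.36 and 1.06 in ATF6aKO DSS, against 0.56 and -0.09 in ATF6aKO UT. In ATF6bKO it had 1.089 and 1.105 in DSS, against 0.26 and 0.11 in UT. The overlapping WT groups had -0.09 and -0.97 (titled DSS) and 0.59 and -0.46 (titled UT). DSS differences of Mrc1 were 0.97 (SE 0.39) in ATF6aKO, 0.91 in ATF6bKO and -0.60 between the WT titled groups. Cd163, the receptor for haemoglobin bound to haptoglobin, had 0.93 and 0.69 in ATF6aKO DSS, against -0.09 and -0.22 in ATF6aKO UT. Its ATF6bKO arrays had 0.94 and 0.98 in DSS, against 0.29 and 0.38 in UT. WT arrays overlapped between the groups, at -0.73 and -1.63 (titled DSS) and -0.63 and -0.99 (titled UT). Replicates of Cd163 lay close together in the knockouts, and its differences were 0.97 (SE 0.28), 0.63 and -0.37 in the same order.

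**Figure D1:**
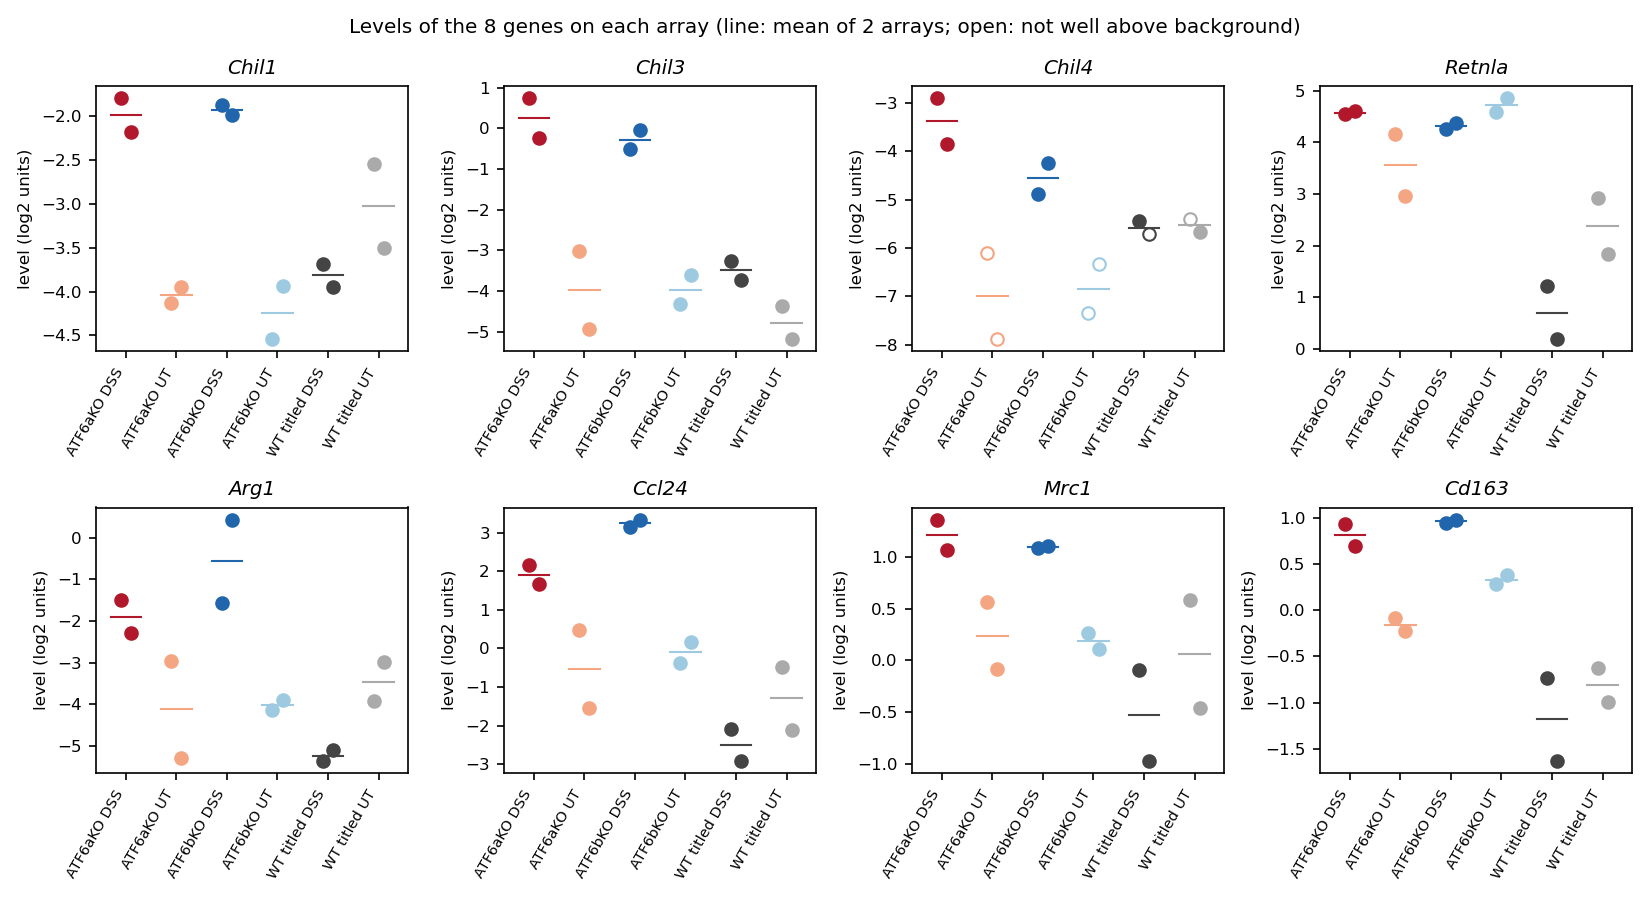
Level of each of the 8 genes (log2 units relative to the array's 75th percentile, vertical axis) on each of the 12 arrays by group; points are arrays, lines are the mean of 2 arrays and open points are arrays on which the probe was not well above background. The knockout DSS arrays of Chil3 sit between -0.51 and 0.75, above all other arrays, and for Retnla all 8 knockout arrays sit above the WT arrays.

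**Figure D2:**
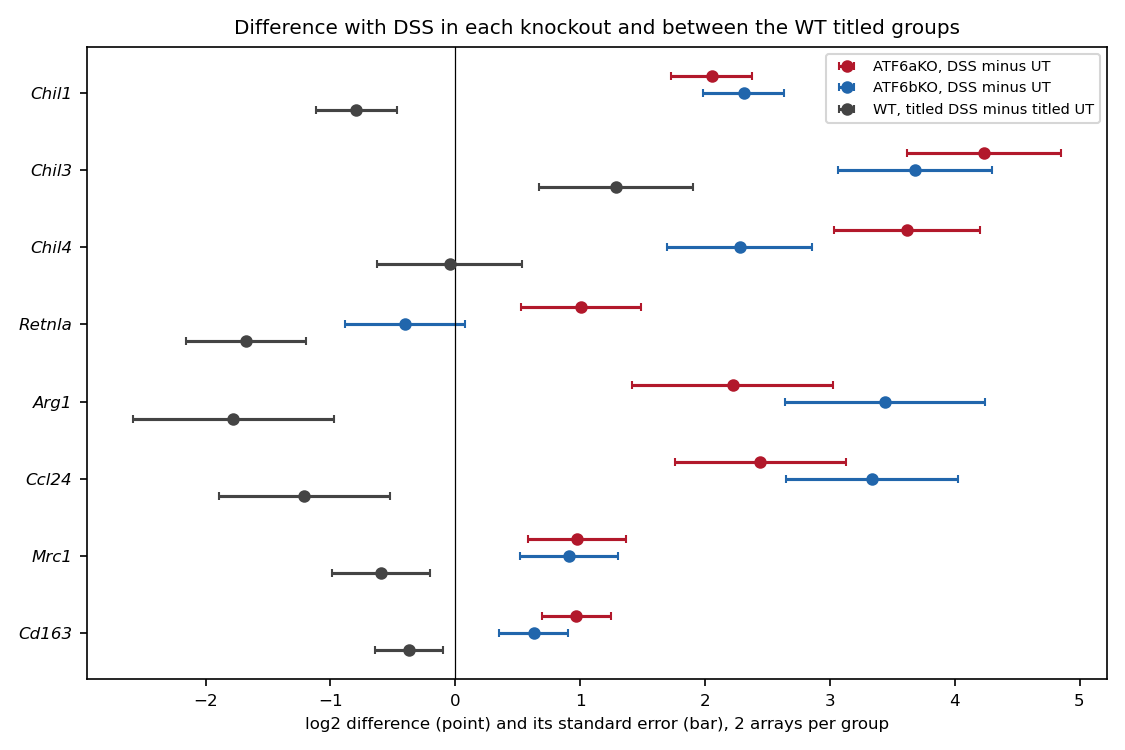
Difference between DSS and UT arrays in ATF6aKO and ATF6bKO, and between the WT titled groups, for each gene (log2 units, horizontal axis); bars are the standard error from the fit of 12 arrays. Differences in the knockouts run from -0.41 (Retnla in ATF6bKO) to 4.23 (Chil3 in ATF6aKO), while those between the WT titled groups run from -1.78 to 1.28.

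Over the 8 genes the median DSS difference was 2.14 in ATF6aKO, 2.29 in ATF6bKO, 2.51 over both knockouts and -0.69 between the WT titled groups, against medians of 0.037, -0.063, -0.011 and -0.038 over all genes tested. In ATF6aKO 3 of the 8 (Chil1, Chil3 and Chil4) passed the adjusted threshold of 0.05 with higher levels, where 2.9% of all genes did. In ATF6bKO 5 passed (those and Arg1 and Ccl24), where 5.65% of all genes did. Over both knockouts 7 passed, Retnla being the exception, where 13.2% of all genes did. Between the WT titled groups Retnla passed with a lower level, where 16.9% of all genes did. Groups of arrays that did not overlap, with higher levels in DSS, were found for all 8 in ATF6aKO (36.3% of all genes), 7 in ATF6bKO (26.3%) and 7 over both knockouts (11.5%). Retnla alone had lower DSS arrays without overlap in ATF6bKO (37.1% of all genes). Between the WT titled groups 1 gene had higher arrays without overlap (Chil3, with 30.4% of all genes) and 3 had lower ones (Chil1, Arg1 and Retnla, with 33.9%). Because these comparisons chose the genes, the counts are a description. The count of 3 in ATF6aKO was 0 without ATF6aKO DSS replicate 1, 1 without ATF6aKO UT replicate 2, 1 with only the arrays compared, and 5 with normexp or without the WT arrays. The count of 5 in ATF6bKO was 1 without ATF6bKO UT replicate 1 or DSS replicate 2 and 3 without ATF6bKO DSS replicate 1. The single WT call was 0 without WT titled DSS replicate 2 or WT titled UT replicate 1 and with only the arrays compared, and 2 genes passed without WT titled UT replicate 2. With normexp background correction the medians were 1.08 in ATF6aKO, 0.95 in ATF6bKO and 0.98 over both knockouts. Whichever array was left out, the median stayed between 1.24 and 2.68 in ATF6aKO, with the lowest value without ATF6aKO UT replicate 2, and between 1.89 and 2.70 in ATF6bKO.

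Whether the knockouts responded differently was tested as the response of ATF6aKO minus that of ATF6bKO. None of the 8 genes passed, and 0 of all 23851 genes did in limma (1899 genes, none of the 8, had an unadjusted p under 0.05; after quantile normalization 5 genes passed, and without ATF6bKO DSS replicate 1 14 genes passed with a higher and 189 with a lower difference, none of them among the 8). The interval is wide for the secreted and enzymatic markers: 1.41 for Retnla (95% interval -0.13 to 2.95, adjusted p = 0.659), 1.34 for Chil4 (-0.53 to 3.21), -1.22 for Arg1 (-3.80 to 1.36), -0.89 for Ccl24 (-3.10 to 1.31) and 0.55 for Chil3 (-1.43 to 2.53). Chil1 had -0.26 (-1.30 to 0.79), Cd163 0.34 (-0.54 to 1.23) and Mrc1 0.06 (-1.20 to 1.33). Chil4 was not well above background on any of the 4 knockout UT arrays, so its value and interval rest on signals that give only a bound. As a description, a difference of 2 log2 units or more between the responses lies outside the interval for Chil1, Mrc1 and Cd163 and inside it for Chil3, Retnla, Arg1 and Ccl24. The DSS and UT levels that entered the choice of the genes also make up this difference. Its p-values and intervals do not allow for that choice, so they exclude no size of difference.

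**Figure D3:**
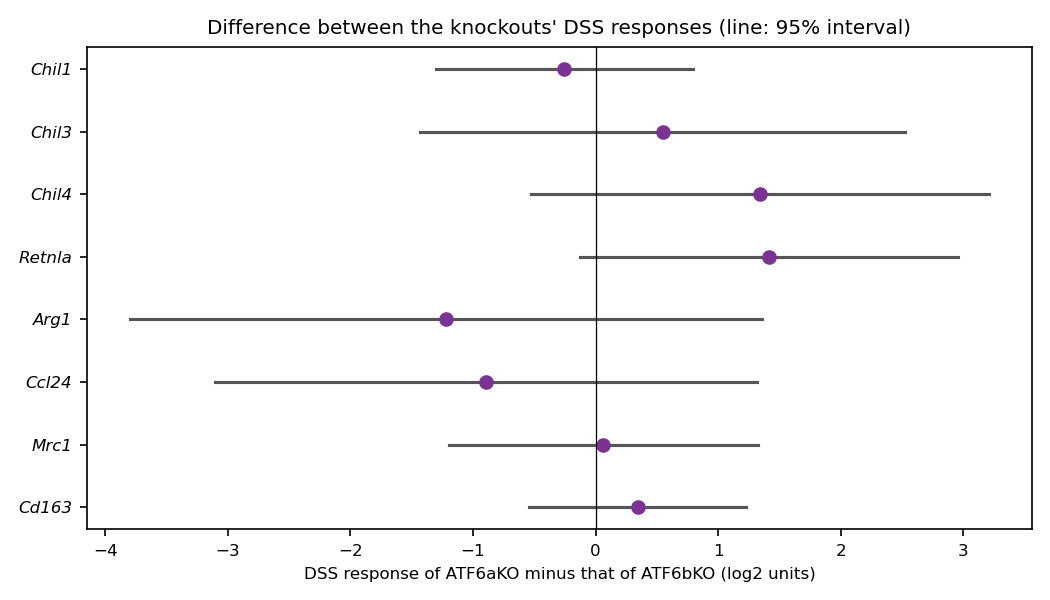
DSS response of ATF6aKO minus that of ATF6bKO for each gene (log2 units, horizontal axis); points are estimates and lines are 95% intervals from the fit of 12 arrays. All 8 intervals include 0, and the interval of Arg1 runs from -3.80 to 1.36.

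Each knockout was then set against WT over both treatments, with 4 arrays a genotype and the titled treatment as a term. The knockout DSS arrays that chose the genes enter this comparison too. Retnla was 2.54 higher in ATF6aKO (SE 0.58, limma adjusted p = 0.0121) and 2.99 higher in ATF6bKO (SE 0.38, adjusted p = 0.00248), which is 5.81-fold and 7.93-fold. Cd163 was 1.32 higher in ATF6aKO (SE 0.32, adjusted p = 0.0147) and 1.64 higher in ATF6bKO (SE 0.28, adjusted p = 0.00701). For both genes every knockout array, DSS or UT, lay above every WT array, and both calls held whichever array was left out.

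Chil3 was higher in ATF6aKO by 2.27 (adjusted p = 0.0296) and in ATF6bKO by 2.01 (adjusted p = 0.0229), and Ccl24 by 2.59 (adjusted p = 0.0358) and 3.48 (adjusted p = 0.0246). These values average over the knockout DSS arrays that chose the genes, so they do not separate genotype from the DSS difference. In the knockout UT arrays alone, Chil3 had 0.80 (ATF6aKO) and 0.81 (ATF6bKO) against WT titled UT. Against WT titled DSS it had -0.48 and -0.47. The calls also rest on few arrays. Without WT titled DSS replicate 1 or 2, WT titled UT replicate 2, or either DSS array of the knockout compared, neither gene passed in ATF6aKO or ATF6bKO, and without ATF6aKO UT replicate 1 neither passed in ATF6aKO. Without ATF6bKO UT replicate 2, Chil3 did not pass in ATF6bKO (adjusted p = 0.0501). Adjusted p reached 0.0780 and 0.0637 for Chil3 and 0.0893 and 0.0671 for Ccl24, in ATF6aKO and ATF6bKO in that order. With the WT groups taken by the treatment field, Chil3 lost its call in both knockouts (adjusted p = 0.148 and 0.146), and Arg1 passed in ATF6bKO (adjusted p = 0.0300).

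Arg1 had a difference of 1.34 in ATF6aKO (adjusted p = 0.237) and 2.06 in ATF6bKO (adjusted p = 0.159). Mrc1 had 0.96 (adjusted p = 0.0949) and 0.88 (adjusted p = 0.123), Chil1 0.41 (adjusted p = 0.579) and 0.33 (adjusted p = 0.697), and Chil4, well above background on 2 of 4 arrays in each genotype, 0.37 (adjusted p = 0.711) and -0.15 (adjusted p = 0.838). In each knockout 4 of the 8 genes thus passed, where 35.2% of all genes passed in ATF6aKO and 29.4% in ATF6bKO in either direction. Without WT titled UT replicate 1, Mrc1 passed in both knockouts (adjusted p = 0.0251 and 0.0292), and without ATF6aKO UT replicate 2, Arg1 passed in ATF6aKO (adjusted p = 0.0343). Between ATF6aKO and ATF6bKO none of the 8 passed, where 9.36% of all genes did. Cd163 came nearest (-0.32, SE 0.11, adjusted p = 0.110), the only one with an unadjusted p under 0.05, and without ATF6aKO UT replicate 1 Ccl24 passed (adjusted p = 0.0478). Overall brightness moved with genotype: the log2 75th percentile of the processed signal was 8.81 to 9.28 in ATF6aKO, 7.94 to 8.61 in ATF6bKO and 9.42 to 10.2 in WT. Its part in these differences was not tested.

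**Figure D4:**
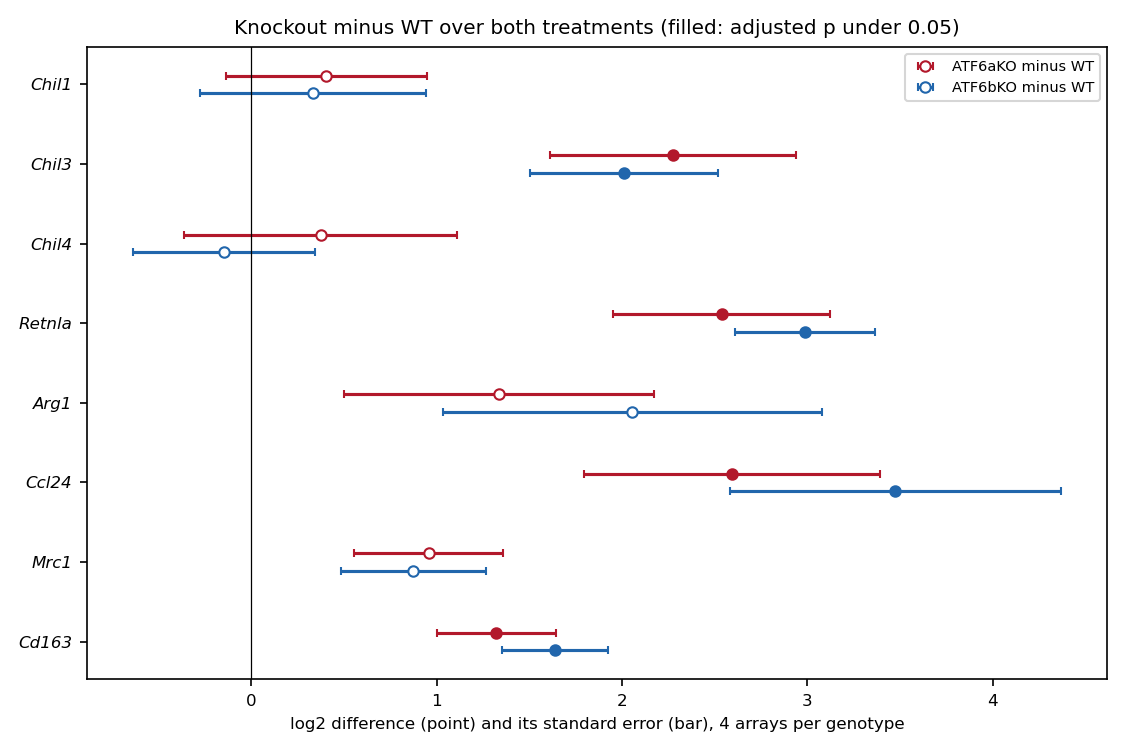
Difference of each knockout from WT over both treatments (log2 units, horizontal axis) with its standard error, 4 arrays per genotype; filled points passed the adjusted threshold of 0.05. Retnla, Cd163, Chil3 and Ccl24 are filled in both knockouts, and Chil1, Chil4, Arg1 and Mrc1 are not.

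The UT arrays of the knockouts, which hold no DSS level, were also set against WT alone, though these UT levels too entered the choice of the genes. This comparison was added after the data had been seen, under both readings of the WT labels. Against WT titled UT, Cd163 was 1.14 higher (adjusted p = 0.00993) and Retnla 2.35 higher (adjusted p = 0.0048) in ATF6bKO UT, while in ATF6aKO UT Cd163 had 0.65 (adjusted p = 0.0803) and Retnla 1.20 (adjusted p = 0.0687). Chil1 was lower in ATF6aKO UT (-1.02, adjusted p = 0.0313) and in ATF6bKO UT (-1.22, adjusted p = 0.0153). Against WT titled DSS, which the treatment field calls untreated, Cd163 was higher by 1.02 and 1.51 and Retnla by 2.87 and 4.03 in ATF6aKO UT and ATF6bKO UT (adjusted p = 0.0329, 0.00905, 0.00574 and 0.0018), Ccl24 was higher by 2.41 in ATF6bKO UT (adjusted p = 0.0438), and Chil1 did not pass (adjusted p = 0.669 and 0.392). Chil3 did not pass in any of these 4 comparisons, and its 4 knockout UT arrays (-4.94 to -3.00) overlapped the 4 WT arrays (-5.19 to -3.25). The share of all genes past the threshold was 46.8% and 46.9% against WT titled UT in ATF6aKO and ATF6bKO, and 19.5% and 17.3% against WT titled DSS.

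Genes around the 8 were taken from 5 pathway lists of 97 genes drawn up by function, of which 84 were tested, and DSS was compared in them with limma. Among 8 other chitinase and resistin-like genes, 3 rose with DSS over both knockouts and 1 fell (median 0.32). Of all genes, 13.2% rose and 15.8% fell. Chit1, the chitinase of phagocytes, rose by 1.56 (SE 0.24, adjusted p = 0.00518). Retnlg, a resistin-like gene of myeloid cells, rose by 1.79 (SE 0.33, adjusted p = 0.00944), and Chid1 rose by 0.40 (adjusted p = 0.025). Ovgp1, a chitinase-like glycoprotein known from the oviduct, fell by 1.21 (SE 0.16, adjusted p = 0.00322). Retnlb, the resistin-like gene of goblet cells, had a difference of 0.28 (adjusted p = 0.303) over both knockouts.

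Of 27 other alternative activation genes, 18 rose and 2 fell over both knockouts (median 1.01), beside 13.2% and 15.8% of all genes. In ATF6aKO 7 rose and 0 fell (2.9% and 3.45% of all genes), and in ATF6bKO 11 rose and 1 fell (5.65% and 7.19%). Ccl17, a chemokine for type 2 helper T cells, rose by 2.43 in ATF6aKO (SE 0.46, adjusted p = 0.0216) and by 3.22 in ATF6bKO (adjusted p = 0.00396). Ccl8, a chemokine of resident macrophages, rose by 1.98 (adjusted p = 0.0294) and 2.10 (adjusted p = 0.0133). Marco, a scavenger receptor of macrophages, rose by 3.67 in ATF6bKO (SE 0.71, adjusted p = 0.0122). Mertk, a receptor for dying cells, fell by 0.73 over both knockouts (adjusted p = 0.00538), and its ligand Gas6 fell by 0.45 (adjusted p = 0.0338).

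The type 2 cytokine list gave 11 of 27 higher and 0 lower over both knockouts (median 0.50), beside 13.2% and 15.8% of all genes. It gave 0 in ATF6aKO alone and 9 higher in ATF6bKO alone, where 2.9% and 5.65% of all genes were higher. For the difference between the knockouts' responses, 0 of the 27 passed. From this list 5 genes were singled out after their values were seen, as ligands, receptor and transcription factor of the pathway. The ligand Il4 rose by 1.20 (SE 0.21, adjusted p = 0.0076), its receptor subunit Il4ra by 1.18 (SE 0.21, adjusted p = 0.00846) and the alarmin Il33 by 1.43 (SE 0.27, adjusted p = 0.00995) over both knockouts. Il13 had a difference of 0.51 (adjusted p = 0.173), and Stat6 -0.022 (adjusted p = 0.883).

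Arginine and polyamine genes showed little common movement: 1 of 12 rose and 2 fell over both knockouts (median -0.0081). The shares of all genes were 13.2% and 15.8%. Nos2, the inducible nitric oxide synthase that competes with arginase for arginine, rose by 2.35 (adjusted p = 0.0146, at least 3.27-fold), and in ATF6bKO alone by 3.61 (adjusted p = 0.000719, at least 6.04-fold). Otc, the urea cycle enzyme that uses ornithine, fell by 4.37 in ATF6aKO (SE 0.56, adjusted p = 0.00759) and by 3.48 in ATF6bKO (adjusted p = 0.00618). The spermine synthase gene Sms fell by 0.33 over both knockouts (adjusted p = 0.0398).

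All 10 genes tested of the opposite, classical activation state rose over both knockouts (median 2.93), 6 of them in ATF6aKO alone (median 1.66) and 9 in ATF6bKO alone (median 3.73). In ATF6aKO the cytokines Il6 (2.52, adjusted p = 0.0204), Tnf (2.48, adjusted p = 0.0044) and Il1b (2.16, adjusted p = 0.0202) and the formyl peptide receptor Fpr2 (2.10, adjusted p = 0.023, at least 4.05-fold) rose. In ATF6bKO the interferon-induced chemokine Cxcl9 (6.37, adjusted p = 0.00172), Il6 (4.99, adjusted p = 0.00132, at least 24.1-fold) and the chemokine Cxcl10 (4.88, adjusted p = 0.000598) rose, with Tnf (3.96, adjusted p = 0.000719) and Fpr2 (3.91, adjusted p = 0.00171, at least 10.8-fold). Of the 84 genes, 13 rose and 1 fell in ATF6aKO (2.9% and 3.45% of all genes), 31 and 2 in ATF6bKO (5.65% and 7.19%), and 43 and 5 over both knockouts (13.2% and 15.8%). The ATF6aKO count of 13 was 1 without either ATF6aKO UT array, 2 without ATF6aKO DSS replicate 1 and 6 without ATF6aKO DSS replicate 2. In ATF6bKO the count of 31 was 17 without ATF6bKO UT replicate 1 and 18 without ATF6bKO DSS replicate 2.

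**Figure D5:**
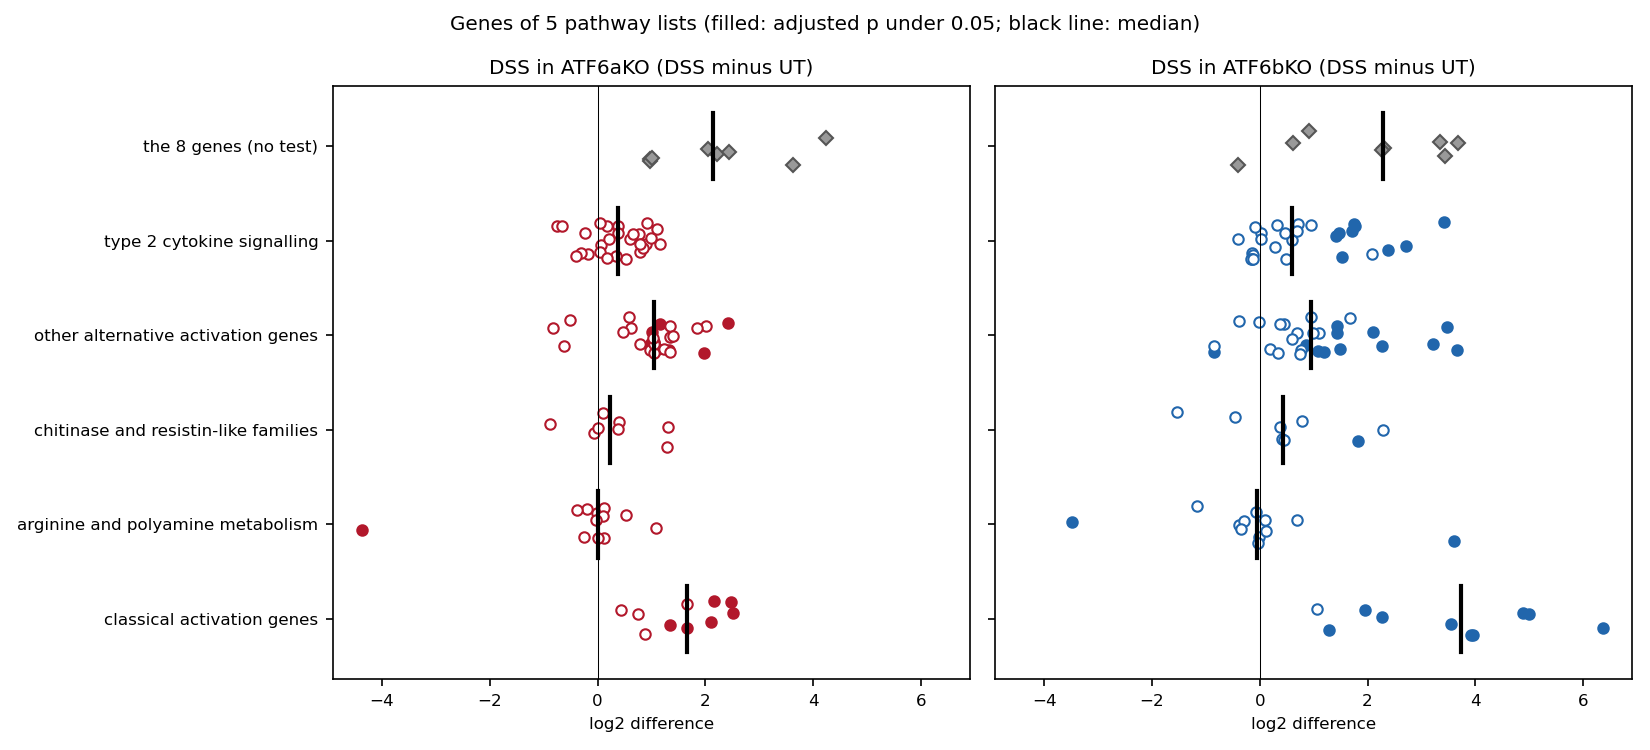
DSS difference (log2 units, horizontal axis) of each tested gene of the 5 pathway lists and of the 8 genes, in ATF6aKO (left) and ATF6bKO (right); circles are list genes, filled where the adjusted p was under 0.05, diamonds are the 8 genes, for which no test is given, and black lines are medians. Classical activation genes have medians of 1.66 and 3.73, beside 2.14 and 2.29 for the 8 genes.

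The 84 pathway genes were also set against WT over both treatments. In ATF6aKO 23 were higher and 12 lower, and in ATF6bKO 16 and 6. Of all genes, 35.2% and 29.4% passed in either direction. Otc had -3.65 in ATF6aKO (adjusted p = 0.00163) and -3.36 in ATF6bKO (adjusted p = 0.00142). Cd209d had 2.82 and Cxcl9 -2.22 in ATF6aKO (adjusted p = 0.0113 and 0.0103), and Pparg -1.19 in ATF6bKO (adjusted p = 0.00873). Retnlg was 4.39 higher in ATF6aKO (SE 0.66, adjusted p = 0.00243) and 4.31 higher in ATF6bKO (SE 0.82, adjusted p = 0.00962), on the same side as Retnla. Arg2, the mitochondrial arginase, was lower in ATF6aKO (-3.42 log2 units, SE 0.29, adjusted p = 0.000272) and in ATF6bKO (-3.02, SE 0.44, adjusted p = 0.00396), where Arg1 did not pass. Ccl8 was higher by 2.64 and 3.01 (adjusted p = 0.00343 and 0.00344). The decoy receptor of interleukin 13, Il13ra2, was higher by 2.43 in ATF6aKO (adjusted p = 0.00252) and by 2.90 in ATF6bKO (SE 0.29, adjusted p = 0.00122). As for all genotype comparisons, slide and genotype cannot be told apart.

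Macrophage markers were higher in sum on the DSS arrays of both knockouts. Their summed linear signal, in multiples of the array's 75th percentile over 13 tested markers, was 119 to 182 in ATF6aKO DSS against 72.0 to 80.5 in ATF6aKO UT. In ATF6bKO it was 157 to 166 in DSS against 54.3 to 62.4 in UT, and in WT 68.3 to 109 (titled DSS) against 92.0 to 124 (titled UT). In ATF6aKO 2 of the 13 rose and 0 fell, where 2.9% and 3.45% of all genes did. In ATF6bKO 8 rose and 1 fell (5.65% and 7.19% of all genes). Over both knockouts 10 rose and 1 fell (13.2% and 15.8%). Of 11 neutrophil markers tested, 5 rose in ATF6aKO, 9 in ATF6bKO and 11 over both knockouts, and 0 fell. Their sums were 2.57 to 3.26 in ATF6aKO DSS against 0.408 to 0.413 in UT. In ATF6bKO they were 24.7 to 25.3 in DSS against 0.268 to 0.369 in UT. In WT they were 0.602 to 1.75 (titled DSS) against 0.480 to 0.735 (titled UT). Of the same neutrophil list, Ngp was well above background on 0 arrays and Elane on 1, and neither was tested. Camp counted as a rise over both knockouts, though it was well above background on 1 knockout DSS array and 0 knockout UT arrays. Mmp8 was well above background on the 4 knockout DSS arrays alone, so it passed the filter on dim probes only through them. Eosinophil markers had sums of 2.41 to 3.57 in ATF6aKO DSS against 1.46 to 2.14 in UT, 3.25 to 4.02 in ATF6bKO DSS against 1.44 to 1.45 in UT, and 1.49 to 2.19 in WT titled DSS against 2.60 to 3.58 in WT titled UT. Of that list 0 of 7 rose in ATF6aKO, 3 in ATF6bKO and 4 over both knockouts, where 13.2% of all genes did. The 4 were Prg2, Ccr3, Ear1 and the chemokine gene Ccl11. The granule gene Epx and Ear6 were well above background on 0 arrays. The part of these cell types in the levels of the 8 genes was not tested.

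The 8 genes varied together to different degrees. Over the 8 knockout arrays Chil3 and Chil4 had a Pearson r of 0.980, Chil3 and Mrc1 0.981, and Arg1 and Ccl24 0.958, while Retnla had 0.213 to 0.571 with the other 7. Over all 12 arrays Retnla had 0.909 with Cd163 and 0.194 with Chil4. These arrays fall into treatment and slide groups, so each r describes group differences as much as variation between arrays. Among 13319 named genes well above background in at least 2 groups, the nearest to Retnla over 12 arrays were Rnase2a (0.981), Il13ra2 (0.957) and F13a1 (0.954). For Cd163 they were Apba1 (0.977), the eotaxin receptor Ccr3 (0.977) and Lilra6 (0.971), and for Ccl24 Lilra6 (0.973), the prostaglandin E synthase Ptges (0.965) and Fxyd5 (0.961). Nearest to Mrc1 were the eosinophil-associated ribonucleases Ear10 (0.971) and Ear1 (0.970) and the growth factor Igf1 (0.954). Chil3 was nearest to Pdgfra (0.981), Serpina3m (0.965) and Eng (0.963), Chil4 to Col4a1 (0.927), Chst11 (0.913) and Krt84 (0.906), Chil1 to Ly6a (0.951), Pip4k2a (0.950) and Ms4a6b (0.948), and Arg1 to Glipr2 (0.976).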

How the data were processed

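Per the file headers and the submitters' processing notes, arrays were quantified with Agilent Feature Extraction (10.7.1.1), and the deposited scanner files give processed intensity per spot, with background and spatial trend subtracted by that program and no scaling between arrays. The deposited value table holds log2 values of the same arrays centred per probe by the authors, with scaling unstated, and served only as an alternative. Control spots (leaving 43379 of 45018) and outlier spots (54 to 108 per array) were left out. Spots of a probe were averaged, and a probe was kept if well above background on both arrays of at least 1 group (30428 of 41174 probes). A gene took its probe of highest mean level. Accessions were named through a RefSeq table of GRCm38.p6, which matched 23374 probes (56.8%). Of the 23851 genes or transcripts tested, 13878 had a symbol. The number of arrays limits the precision, and the spread of log2 differences between the 2 arrays of a group had an SD of 0.436 to 0.731.

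Differences came from limma 3.58.1 (lmFit, eBayes) in R 4.3.3, adjusted over all genes by Benjamini-Hochberg with a threshold of 0.05. DSS comparisons within a genotype and their differences used 12 arrays with 6 group means, the comparison over both knockouts 8 arrays with genotype as a term, and genotype comparisons 8 arrays with treatment as a term. The 8 genes, the pathway and marker lists and the tests were chosen with earlier results of these data known. Named list genes were, per DSS comparison, up to 6 each way with the largest change past the threshold and well above background on every array of the higher group (3 for genotype comparisons), and genes of counts of 5 or fewer. Nearest genes were the 3 with the highest Pearson r per gene, and for Arg1 only the first is reported here. Same-numbered replicates did not deviate together (r of -0.017 to 0.071), so the numbers were not taken to pair arrays. Alternatives were normexp background correction (offset 50, on median intensities, since mean intensities are not in the files used), quantile normalization, filters on dim probes, averaging of probes, the value table, the WT treatment field, other sets of arrays, a replicate block and leaving out each array. The script was tested on simulated data. Sequences were searched with Python 3.11.15 and aligned with Biopython 1.88.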

Additional observations from a re-analysis of the deposited data

Results flagged for a closer look

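By the titles, Chil1 and Arg1 in both knockouts and Retnla in ATF6aKO alone moved opposite to the difference between the WT titled groups. In each case both arrays of one treatment lay above both of the other. In ATF6bKO Retnla moved the same way as between the WT titled groups. Such separation was found upwards for 36.3% of all genes in ATF6aKO and 26.3% in ATF6bKO. Between the WT titled groups it was found downwards for 33.9%. The share of all genes with opposite separation was not counted, so how common the pattern is among all genes is not known. The values are the DSS response of the knockout minus the WT titled difference, in log2 units, and were computed after the data had been seen. The genes were chosen on these responses, so the difference was not tested. Chil1 had 2.85 in ATF6aKO and 3.10 in ATF6bKO. Arg1 had 4.0 in ATF6aKO and 5.22 in ATF6bKO, and Retnla had 2.68 in ATF6aKO. With the WT groups taken by the treatment field, the same values were 1.26 and 1.52 for Chil1, 0.45 and 1.67 for Arg1, and -0.67 for Retnla.

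Retnla moved in opposite directions in the knockouts, with both ATF6aKO DSS arrays above both UT arrays and both ATF6bKO DSS arrays below both UT arrays. Of all genes, 36.3% were separated upwards in ATF6aKO and 37.1% downwards in ATF6bKO. The difference of the responses was 1.41 (SE 0.68) and did not pass (adjusted p = 0.659). Without ATF6aKO UT replicate 2 it was 0.81, and the DSS difference in ATF6aKO was 0.41.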

How the results depend on the processing

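With normexp, the median difference of the 8 genes was 1.08 in ATF6aKO, 0.95 in ATF6bKO and 0.98 over both knockouts, against 2.14, 2.29 and 2.51; the cause was not tested. Normexp also shifted the median of all genes, to 0.34 in ATF6bKO minus WT (-0.022 otherwise), and turned the split of higher to lower genes over both knockouts to 5055 and 3487, against 3144 and 3761, in ATF6aKO minus WT to 4347 and 2732, against 3472 and 4926, in ATF6bKO minus WT to 9844 and 2892, against 3287 and 3725, in ATF6bKO with DSS to 982 and 825, against 1348 and 1716, and in ATF6aKO with DSS to 765 and 758, against 691 and 822. With that shift included, Chil4 turned to 0.95 in ATF6bKO minus WT (adjusted p = 0.00326) and passed in ATF6aKO minus WT (0.69, adjusted p = 0.0441). Between the knockouts the split of 704 and 1528 became 2622 and 10909 with normexp and 780 and 1030 with quantile normalization. The value table shifted the median of all genes to 0.57 in ATF6aKO minus WT and 0.61 in ATF6bKO minus WT, with splits of 9905 and 1390 and of 9877 and 819. With the value table's columns taken by name and with the treatment field, the WT titled median turned to 0.63 and 0.69, Chil1 to 0.73 and 0.79, Chil3 to -1.35 and -1.28, Arg1 to 1.71 and 1.78, Retnla to 1.62 and 1.68, and Ccl24 to 1.15 and 1.21, since both settings exchange the WT groups. Numbers of the 8 genes past the threshold, 4 against WT in each knockout, were 5 and 6 with normexp and 6 and 6 with the value table. Chil3 missed the threshold in ATF6aKO with the value table (adjusted p = 0.0523), and Ccl24 without the filter on dim probes (adjusted p = 0.0502).

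Pathway genes higher in ATF6aKO, 13, were 7 without the filter on dim probes, 7 with the replicate block, 3 with only the arrays compared and 24 without the WT arrays; the lower count of 1 was 0 with the strict filter and 2 without the WT arrays. The lower count of 2 in ATF6bKO was 1 with normexp, 1 without the filter and 1 with the replicate block, and that of 5 over both knockouts was 8 with normexp and 3 without the filter. Same-numbered replicates share only a number, and the block changed no call of the 8 genes in the genotype comparisons or the difference of responses, while their counts past the threshold with DSS were 4 in ATF6aKO, 6 in ATF6bKO and 2 between the WT titled groups, against 3, 5 and 1. Leaving out 1 array gave medians of 1.24 to 2.68 (ATF6aKO), 1.89 to 2.70 (ATF6bKO), 2.25 to 2.67 (both) and -1.19 to -0.25 (WT titled, the extremes without WT titled UT replicate 2 and WT titled UT replicate 1). Genes of the 8 past the threshold were 0 to 0 for the difference of responses, 2 to 5 against WT in either knockout and 0 to 1 between knockouts. Pathway counts of higher and lower genes were 1 to 19 and 1 to 2 (ATF6aKO), 17 to 34 and 1 to 3 (ATF6bKO), and 35 to 44 and 3 to 5 (both), where the lower count of 1 in ATF6aKO was 2 when either WT titled UT array was left out, that of 2 in ATF6bKO was 1 when any of its 4 arrays was, and that of 5 was 3 when any of 5 knockout arrays was (both ATF6bKO UT, ATF6bKO DSS replicate 2 and both ATF6aKO DSS). Of 512 other values for single genes, 471 were counted as unchanged. A tested value counted so if it stayed on its side of the threshold, also where it changed sign without passing in either setting. A DSS or WT titled difference counted so if it moved by less than 1 SD and, where above 1 SD, kept its sign. Signals near background limit Chil4.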
